A study of Danio rerio with 8 samples.

Results

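The aminoacyl-tRNA synthetase genes of zebrafish were followed in pex2 mutant larvae. The genes were chosen by symbol alone, as every symbol made of a 1-letter amino acid code and "ars" with an optional 1, 2, 3, a or b, together with eprs1, the enzyme for glutamate and proline. The RefSeq gene table of the GRCz12tu assembly holds 36 such genes, 20 cytosolic (symbols without the suffix 2) and 16 mitochondrial (suffix 2). A probe carried the accession of 31 of them, and 30 gave a signal that could be tested, among 17260 named genes tested in all. Probes for gars1, iars2, mars2, qars1 and tars3 were not named on the array. The probe of kars1, for lysine, was not well above background on any of the 8 arrays and was not tested.

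Total RNA came from whole bodies at 5 weeks post fertilization. The mutants were pex2-/- fish of the typeC allele, and the controls were their pex2+/+ siblings, and a single allele was studied. Each of the 8 samples mixed equal RNA of 3 larvae and was hybridised to its own one-colour array, 4 pools per genotype. The sources used here give neither clutch nor sex for any pool. The p-values therefore reflect only how far these pools scatter, which may be partly technical.

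Aminoacyl-tRNA synthetases attach each amino acid to its transfer RNA, the step that fixes the meaning of the genetic code. Animal cells read the code in the cytosol and again inside mitochondria, and most amino acids have a separate nuclear gene for each place. The cytosolic enzymes serve bulk protein synthesis, and several of them sit in a multisynthetase complex. The mitochondrial enzymes serve the few respiratory chain proteins encoded by mitochondrial DNA, and inherited defects in them cause disorders of brain, heart, ovary and other tissues in people. Pex2 sits in the peroxisomal membrane and helps to import the enzymes of that organelle, and in people its loss causes Zellweger syndrome.

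Levels below are log2 intensities minus the 75th percentile of the array, so a level of 0 is the intensity at that percentile. The intensity at that percentile ran from 611 to 839 in the siblings and from 454 to 499 in the mutants, without overlap. All arrays lay on 1 slide and were read in 1 scan, with 2 pools of each genotype in each row of the slide. Between 70.9% and 79.2% of spots were well above background, and the lowest share was that of mutant pool 4. Differences are mutant minus sibling with the moderated standard error, and a gene passed at an adjusted p under 0.05 from limma, adjusted over all probes. Levels of different genes are not compared, because each probe binds with its own strength. In RNA from whole bodies, fewer cells of a type and less RNA per cell cannot be told apart.

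Changes among the synthetases were small. Mitochondrial genes were mostly lower in the mutants and cytosolic genes went both ways. Of 14 mitochondrial genes 7 fell, 1 rose and 6 did not pass, and of 16 cytosolic genes 2 fell, 2 rose and 12 did not pass. One of the 7, yars2, met the filter through the siblings and had a signal in 1 mutant pool, and 6 fell among probes well above background on all 8 arrays. Among all named genes tested, 57.6% passed, 29.9% as higher and 27.8% as lower. The share of mitochondrial synthetases that passed, 57.1%, was near that background. The cytosolic share, 4 of 16, lay below it. The median difference was -0.35 for the mitochondrial genes, -0.13 for the cytosolic genes and 0.01 for all named genes. The cytosolic median was -0.02 with quantile scaling, -0.01 with the mean of a gene's probes, -0.04 without hars, whose product serves both compartments, and -0.20 to -0.06 with a pool left out. The median size of the difference without its sign was 0.40, 0.25 and 0.50 in the same order. A change of at least 1.5-fold was seen in 3 of the 30 synthetases, all of them mitochondrial and yars2 among them, and in 7468 of the 17260 genes. The genotypes did not overlap in 8 mitochondrial and 3 cytosolic genes, against 54.6% of all genes. With another background correction (normexp, a model of signal plus noise, with an offset of 50) the mitochondrial median was -0.09 and 5 of those genes fell. Under that correction the median of all named genes was 0.09, with 36.4% higher and 24.3% lower. In the pools of slide row 2 alone, 2 per genotype, 0 synthetases and 5.48% of all genes passed.

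**Figure D1:**
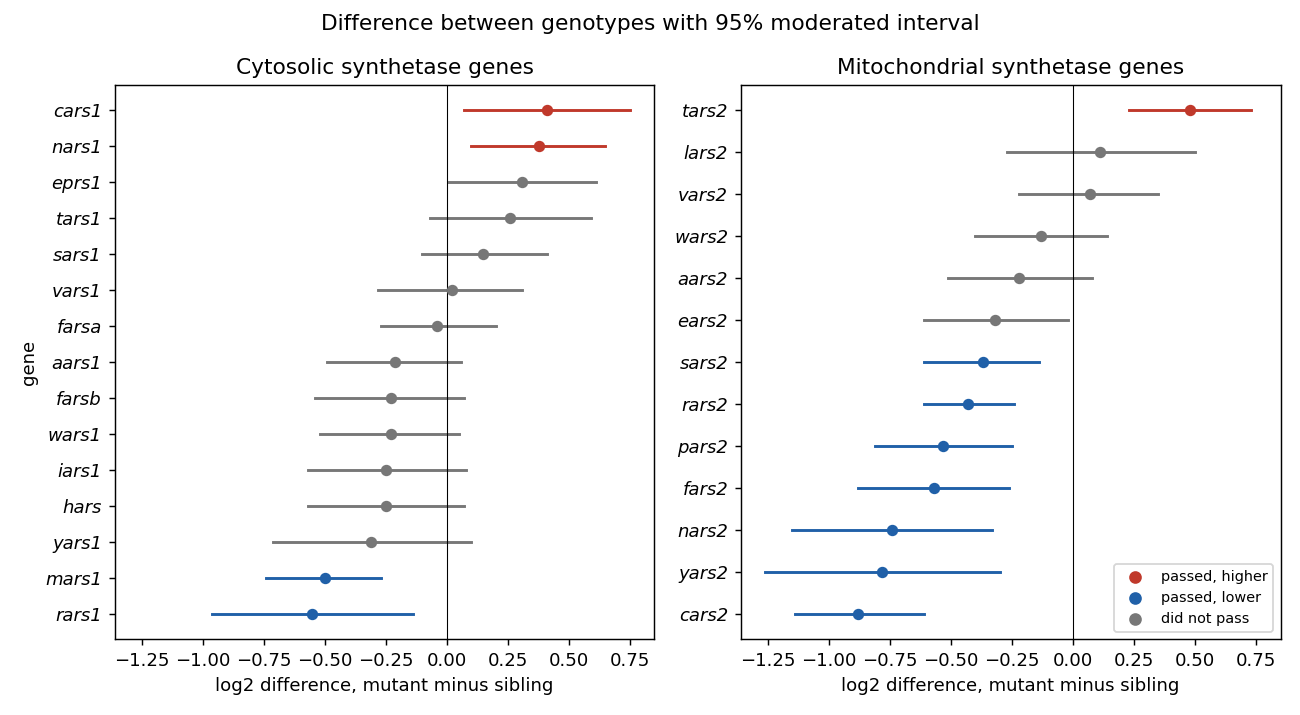
Log2 difference between genotypes (x axis, mutant minus sibling, n = 4 pools each) for 15 cytosolic and 13 mitochondrial synthetase genes (y axis), with points for the fitted difference, bars for the 95% moderated interval and colour for the limma call. On the mitochondrial side 7 genes are called lower, from cars2 at -0.88 to sars2 at -0.37, and tars2 is called higher at 0.48, while 2 cytosolic genes are called higher and 2 lower.

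The mitochondrial cysteine enzyme gene cars2 had the largest difference under the scanner's background correction, and nars2 the larger of these 2 with normexp. Its level was -1.90, -1.57, -1.61 and -1.72 in sibling pools 1 to 4 and -2.48, -2.78, -2.59 and -2.45 in mutant pools 1 to 4. Every mutant pool was below every sibling pool. It was 1.84-fold lower (-0.88 ± 0.11 SE, limma adjusted p = 4.24e-04), and the difference was -0.47 with normexp, where it still passed (adjusted p = 0.00168). For nars2, the asparagine enzyme, the sibling levels were 0.21, 0.35, -0.24 and -0.06 and the mutant levels -0.49, -0.44, -0.74 and -1.03. These groups did not overlap either, with a 1.67-fold lower value in the mutants (-0.74 ± 0.18, limma adjusted p = 0.00753, and -0.64 with normexp).

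The tyrosine enzyme yars2 and the phenylalanine enzyme fars2 also fell, from weaker signals. The yars2 levels were -4.77, -3.97, -4.03 and -3.87 in the siblings and -4.90, -5.24, -4.78 and -4.84 in the mutants. Sibling pool 1 lay barely above the highest mutant pool. The signal cleared background in each sibling pool but in only 1 mutant pool. The fitted difference, which rests on mutant signals mostly not well above background, was -0.78 ± 0.21 (limma adjusted p = 0.0127). With normexp it turned to 0.12 and did not pass (adjusted p = 0.411). For fars2 the sibling levels were -2.22, -1.72, -2.21 and -2.10 and the mutant levels -2.63, -2.62, -2.48 and -2.80. The mutant pools were all lower, by 1.49-fold (-0.57 ± 0.14, limma adjusted p = 0.00745). With normexp the fars2 difference was -0.22 and did not pass (adjusted p = 0.108).

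The proline enzyme pars2, the arginine enzyme rars2 and the serine enzyme sars2 completed the set of lower mitochondrial genes. The pars2 level was -0.45, -0.73, -0.52 and -0.74 in the siblings and -1.13, -1.37, -1.13 and -0.93 in the mutants, without overlap (-0.53 ± 0.12, limma adjusted p = 0.00650). For rars2 the pools were tightest, with 0.82, 0.82, 0.68 and 0.77 in the siblings and 0.40, 0.33, 0.37 and 0.28 in the mutants. Its 1.34-fold fall (-0.43 ± 0.08, limma adjusted p = 0.00232) was therefore large beside the SD between pools of 0.07 in siblings and 0.05 in mutants. The sars2 difference was -0.37 ± 0.10 (limma adjusted p = 0.0131). The falls of cars2, nars2, pars2, rars2 and sars2 also passed with normexp. Those genes and fars2 kept their calls with any 1 of the 8 pools left out. The yars2 call was kept as well, but its mutant signals mostly did not clear background, so this says little.

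The threonine enzyme tars2 was the exception among mitochondrial genes. Its level was -0.13, -0.18, -0.12 and -0.25 in the siblings and 0.29, 0.40, 0.07 and 0.50 in the mutants, and all mutant pools were higher. It rose 1.40-fold (0.48 ± 0.11, limma adjusted p = 0.00569), with 0.44 under normexp. The leucine enzyme lars2 (0.11, 95% interval -0.27 to 0.50) and the valine enzyme vars2 (0.07, -0.22 to 0.35) did not pass. In lars2 the siblings read -1.94, -2.04, -1.90 and -2.01, and the mutants -1.92, -2.32, -1.67 and -1.53, so the mutant pools lay on both sides of the siblings. The vars2 levels were -2.10, -1.91, -2.05 and -2.10 in siblings and -2.13, -1.92, -1.69 and -2.16 in mutants. The genes for glutamate (ears2, -0.32), alanine (aars2, -0.22) and tryptophan (wars2, -0.13) did not pass either. For ears2 the siblings read -2.29, -2.04, -2.20 and -2.09 and the mutants -2.27, -2.40, -2.42 and -2.80. Mutant pool 1 lay within the siblings' range, and the limma adjusted p was 0.0639 (0.0411 to 0.0472 with array weights, the slide row as a block or quantile scaling).

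**Figure D2:**
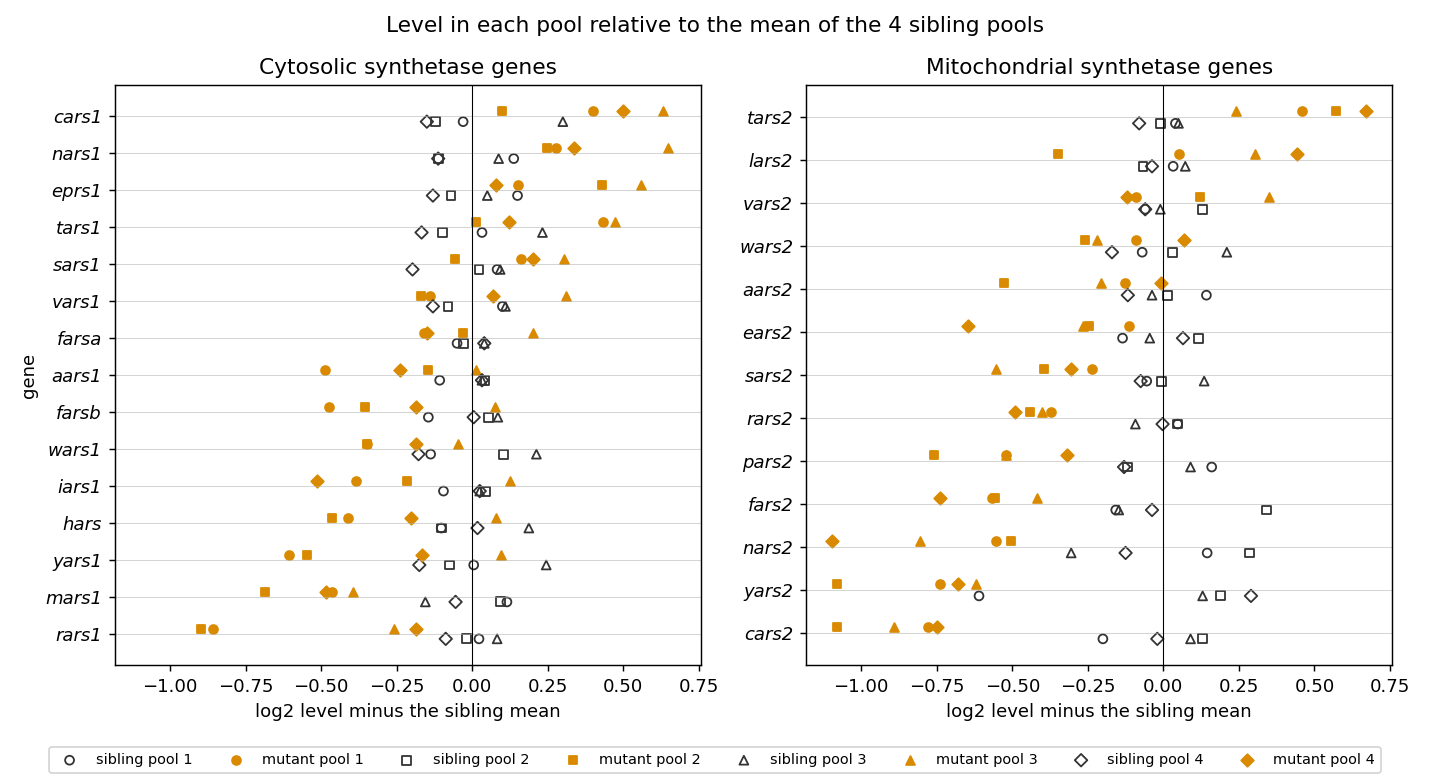
Log2 level of each gene in each pool minus the mean of the 4 sibling pools (x axis) for cytosolic (left) and mitochondrial (right) synthetase genes (y axis, ordered by the genotype difference), with open symbols for sibling pools, filled symbols for mutant pools and the shape for the pool number. The mutant pools of cars2, nars2, fars2, pars2 and rars2 all lie left of the siblings, while among the cytosolic genes mutant pool 3 (filled triangle) is the highest mutant pool in 14.

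Among the cytosolic genes, those for cysteine and asparagine rose. The cars1 level was 0.47, 0.38, 0.80 and 0.35 in sibling pools and 0.90, 0.60, 1.13 and 1.00 in mutant pools, so that mutant pool 2 lay below sibling pool 3. The fit gave 1.33-fold (0.41 ± 0.15, limma adjusted p = 0.0415). This call was lost without sibling pool 1, 2 or 4 or mutant pool 1, 3 or 4 (adjusted p 0.0758 to 0.104), and with quantile scaling, no filter or the slide row as a block (0.0574 to 0.0638). For nars1 the siblings read 2.55, 2.30, 2.50 and 2.30 and the mutants 2.69, 2.66, 3.06 and 2.75, with no overlap. The 1.30-fold rise (0.38 ± 0.12, limma adjusted p = 0.0249) did not pass without sibling pool 2 or 4 or mutant pool 3 (0.0539 to 0.0690). Within slide row 1 the differences were 0.65 for cars1 and 0.57 for nars1, and within row 2 they were 0.17 and 0.18, with 2 pools of each genotype in a row.

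The next largest positive differences did not pass. The double enzyme gene eprs1 read 3.03, 2.81, 2.93 and 2.75 in siblings and 3.03, 3.31, 3.44 and 2.96 in mutants, where pools 1 and 4 lay at or below the highest sibling. Its difference was 0.31 ± 0.13 (limma adjusted p = 0.0746), and it passed with quantile scaling, median scaling or array weights (0.0200 to 0.0496) and without mutant pool 4 (0.0328). The threonine enzyme gene tars1 read 2.14, 2.01, 2.34 and 1.94 in siblings and 2.54, 2.12, 2.58 and 2.23 in mutants, which overlapped (0.26 ± 0.14, limma adjusted p = 0.147; 0.38 and adjusted p = 0.0330 with array weights).

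The arginine and methionine enzyme genes rars1 and mars1, whose products belong to the multisynthetase complex, fell. In rars1 the siblings read 1.85, 1.81, 1.91 and 1.74, and the mutants split into 0.97 and 0.93 in pools 1 and 2 and 1.57 and 1.64 in pools 3 and 4. All mutant pools were lower, by 1.46-fold on average (-0.55 ± 0.18, limma adjusted p = 0.0282). The call was lost without sibling pool 1, 2 or 3 or mutant pool 1 or 2 (0.0580 to 0.0706). For mars1 the siblings read 1.44, 1.42, 1.17 and 1.27 and the mutants 0.86, 0.64, 0.93 and 0.84. This 1.42-fold fall had even pools (-0.50 ± 0.10, limma adjusted p = 0.00375), and it passed without any one of the 8 pools.

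No other cytosolic gene passed in either direction. The tyrosine enzyme gene yars1 read 1.62, 1.54, 1.86 and 1.44 in siblings and 1.01, 1.07, 1.71 and 1.45 in mutants, with only pools 1 and 2 below the siblings (-0.31 ± 0.18, limma adjusted p = 0.167). The histidine gene hars read 3.15, 3.15, 3.44 and 3.27 in siblings and 2.84, 2.79, 3.33 and 3.05 in mutants (-0.25 ± 0.14, limma adjusted p = 0.155). Mutant pool 3 lay inside the sibling range in both genes. The remaining 8 genes lay between -0.25 (iars1, for isoleucine) and 0.15 (sars1, for serine). For farsa, the alpha subunit of the phenylalanine enzyme, the siblings read 2.62, 2.64, 2.71 and 2.71 and the mutants 2.51, 2.64, 2.87 and 2.52. Its difference of -0.04 had a 95% interval of -0.27 to 0.20. The sars1 difference was 0.32 and passed with quantile scaling (adjusted p = 0.0361). The farsb (beta subunit), hars, iars1 and yars1 differences passed as lower without mutant pool 3, at -0.34, -0.36, -0.37 and -0.44 (adjusted p 0.0231 to 0.0457). Without that pool 6 of the 16 cytosolic genes were lower and 0 higher. Of all named genes 25.8% were then lower and 27.3% higher.

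Many cytosolic genes were highest in the same pools. Each gene's level was set against its mean over the 8 arrays and the median was taken over the 16 genes. This median was 0.22 in mutant pool 3 and -0.18, -0.12 and -0.07 in mutant pools 1, 2 and 4. In the sibling pools it lay between 0.00 and 0.10, so the genotypes overlapped. Mutant pool 3 held the highest mutant level in 14 of 16 genes, and sibling pool 3 the highest sibling level in 10 of 16. Both of these arrays stood in column 3 of the slide, and the part of that position was not tested. How often pool 3 was highest among all named genes was not computed. The SD between pools was larger in the mutants in 14 of 16 cytosolic, 8 of 14 mitochondrial and 12102 of all 17260 named genes. In the cytosolic genes the median SDs were 0.23 in mutants and 0.13 in siblings, against 0.22 and 0.15 over all named genes. The mitochondrial median was even, from -0.23 to -0.14 in the mutants and from 0.08 to 0.16 in the siblings. With normexp it was -0.10 to 0.02 in the mutants and -0.10 to 0.12 in the siblings, which overlapped.

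The design allows the 2 compartments to be compared amino acid by amino acid. Within each array the log2 ratio of the cytosolic to the mitochondrial gene was taken, and its mutant mean was compared with its sibling mean. There were 14 such pairs, of which those with eprs1 and those with fars2 share a gene. The ratio was higher in the mutants in 9 pairs and lower in 4, and for aars1 and aars2 the difference was 0.00. The median difference was 0.41. With normexp, 6 were higher and 8 lower, and the median was -0.08, so the direction of the median depends on that setting. Its offset of 50 weighs most on dim probes and on dim arrays. Mitochondrial probes (27.4 to 899) were dimmer than cytosolic ones (953 to 7660). The intensity at the 75th percentile averaged 698 in siblings and 476 in mutants. The offset can therefore lift mitochondrial values more in mutants, and its part in the -0.08 was not tested apart from the background correction.

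The ratio of cars1 to cars2 moved most. Relative to the sibling mean it was 0.17, -0.25, 0.21 and -0.13 in the siblings and 1.18, 1.18, 1.53 and 1.26 in the mutants. The mutant mean of 1.29 was far outside the SD of 0.22 in siblings and 0.16 in mutants (n = 4 each, exact permutation p = 0.0286, two-sided, which is the smallest value this design allows). For nars1 to nars2 the siblings read -0.01, -0.39, 0.39 and 0.01 and the mutants 0.83, 0.76, 1.45 and 1.43, which differed by 1.12 without overlap. The ratio of eprs1 to pars2, both of which charge proline, was -0.01, 0.05, -0.05 and 0.00 in the siblings. In the mutants it was 0.68, 1.20, 1.08 and 0.40, a difference of 0.84, again without overlap. Pairs for phenylalanine (farsa to fars2, 0.54) and serine (sars1 to sars2, 0.53) also did not overlap. The fourth largest, eprs1 to ears2 (0.62), did, since mutant pool 1 at 0.27 was below sibling pool 1 at 0.28 (exact permutation p = 0.0571). Each of the 5 pairs without overlap had the smallest possible exact permutation p of 0.0286, and over the 14 pairs the Benjamini-Hochberg adjusted p was 0.0800, so none passed 0.05. Lack of overlap was common in these data, at 54.6% of all named genes taken singly. The share among other gene pairs was not computed. With normexp the 5 pairs without overlap kept their direction, at 0.88, 0.95, 0.65, 0.17 and 0.36 in the order given.

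**Figure D3:**
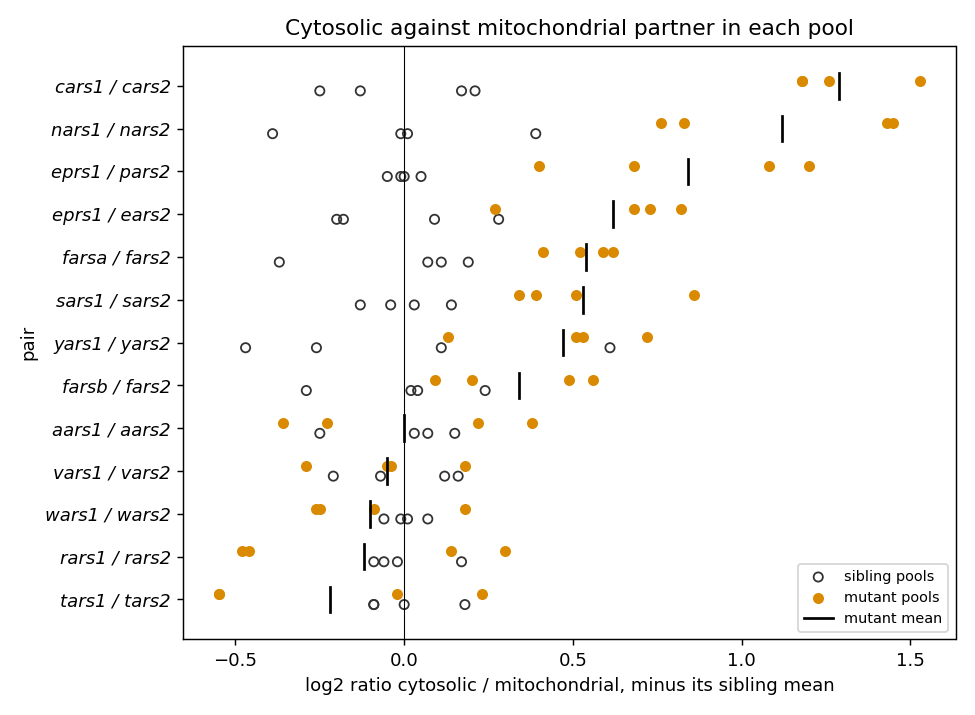
Log2 ratio of the cytosolic to the mitochondrial synthetase gene of an amino acid in each pool, minus its sibling mean (x axis), for 13 pairs (y axis), with open points for siblings, filled points for mutants and a bar for the mutant mean. The mutant pools lie to the right of all sibling pools for cars1/cars2 (1.29), nars1/nars2 (1.12), eprs1/pars2 (0.84), farsa/fars2 (0.54) and sars1/sars2 (0.53).

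In the remaining pairs the pools of the genotypes overlapped. The tyrosine pair, yars1 to yars2, differed by 0.47 (exact permutation p = 0.171, n = 4 each), and by -0.50 with normexp. The arginine genes were lower in both, by -0.55 in rars1 and -0.43 in rars2, and the threonine genes were positive in both, at 0.26 in tars1 and 0.48 in tars2. Their ratios differed by -0.12 (exact permutation p = 0.457, n = 4 each) and -0.22 (p = 0.371). For rars1 to rars2 the mutant ratios were -0.48, -0.46, 0.14 and 0.30, the same split of pools as in rars1 itself. The ratios for valine and tryptophan differed by -0.05 and -0.10, each with overlapping pools. A p that misses the threshold in 4 against 4 pools does not show that these genes moved alike.

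Synthetases fall into class I and class II, which have unrelated catalytic folds. In class I 1 gene rose and 5 fell of 14, and in class II 2 rose and 4 fell of 15. The medians were -0.28 and -0.21, and eprs1, which holds a domain of each class, was left out. Of these classes 42.9% and 40% passed, below the 57.6% of all named genes. The 5 tested genes whose products belong to the multisynthetase complex had a median of -0.25 (-0.55 to 0.31), and the 11 cytosolic genes outside it a median of -0.04 (-0.31 to 0.41). These ranges overlapped, and the difference was not tested.

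Several genes had more than 1 probe, and these mostly read alike. The brightest probe of aars1 gave -0.21 and a second -0.13, while a further, dim probe gave 0.40 (limma adjusted p = 0.0647), and none passed. The tars1 probes gave 0.26 and 0.27, and those of yars1 -0.31 and -0.15. The kars1 probe read -5.83 to -6.30 in siblings, and in the mutants -4.73 in pool 2 and -6.15 to -6.83 in the others, all below the background limit.

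Other steps of tRNA charging and translation were read from lists that the rule does not use. In the complex scaffold 0 of 3 tested genes passed in limma (aimp1a -0.33, aimp1b -0.07, aimp2 0.34), and 0 had an unadjusted p under 0.05. Without mutant pool 4, aimp2 was at 0.49 and passed (adjusted p = 0.00527). With array weights aimp2 passed as well (0.38, adjusted p = 0.0243), and with normexp aimp1a passed as lower (-0.41, adjusted p = 0.0326). Among genes that process, modify or export cytosolic tRNA, 6 of 18 fell and 1 rose, with a median of -0.21. That is 33.3% lower, near the 27.8% of all named genes, and 38.9% passed in either direction, below the 57.6% of all named genes. The pseudouridine synthase pus1, which acts in nucleus and mitochondria, fell 2.17-fold (-1.12 ± 0.20), from 0.30 to 1.06 in the siblings to -0.83 to -0.20 in the mutants. The guanine methyltransferase mettl1 (-0.53 ± 0.09) and the 3′ end nuclease elac1 (-0.32 ± 0.10) fell as well, and the exporter xpot did not pass (0.01). The call of elac1 was lost without sibling pool 2 or 4 (adjusted p 0.0637 and 0.0558).

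For charging and modifying mitochondrial tRNA, 5 of 13 genes fell and 0 rose, with a median of -0.27. The share that passed was 38.5%, all of it lower, against 57.6% of all named genes that passed and 27.8% that were lower. The largest was gtpbp3, which helps modify the wobble base, at 2.52-fold lower (-1.33 ± 0.28, limma adjusted p = 0.00433). Its siblings read -0.61, -0.53, -1.15 and -0.97 and its mutants -1.33, -2.44, -2.22 and -2.60. All mutant pools were lower, with pool 1 nearest the siblings. The methyltransferase trmt5 fell too (-0.78 ± 0.11, -0.39 with normexp), as did the threonylcarbamoyl enzymes yrdc (-0.49 ± 0.13) and osgepl1 (-0.42 ± 0.12, 0.06 with normexp, where it did not pass). Of the mitochondrial translation factors, 0 of 12 passed in limma, with a median of -0.11 and values from -0.24 to 0.33, among them tufm at -0.18 and gfm1 at 0.00, and 1 had an unadjusted p under 0.05. The eef1a genes eef1a1a (0.66 ± 0.09), eef1a1b (0.50 ± 0.13) and eef1a1l1 (0.37 ± 0.12), which bring charged tRNA to the cytosolic ribosome, rose, 3 of 13 elongation factor genes. That is 23.1% higher and 0 lower, below the 29.9% higher and 27.8% lower of all named genes. The related eef1a1l2 and eef1a2, both at -0.37, did not pass, and eef1a1l2 was at 0.00 without mutant pool 4. For eef1a1l1 the value was 0.12 and did not pass with quantile scaling (adjusted p = 0.187), and its call was also lost without any one of sibling pools 1, 3 and 4 and mutant pools 1, 2 and 3 (0.0507 to 0.0641). Whether these similar genes share signal between probes was not tested.

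Several cytosolic synthetase genes are targets of the amino acid response through Atf4 in mammals, so the genes of that response were also read. Of 24 tested, 6 rose and 4 fell, with a median of 0.16. The share that passed, 41.7%, was below the 57.6% of all named genes. The stress factor ddit3 rose 2.21-fold (1.14 ± 0.12, limma adjusted p = 1.67e-04) and the serine synthesis enzyme phgdh 2.01-fold (1.00 ± 0.12, limma adjusted p = 3.23e-04). The highest ddit3 sibling read 1.84 and the lowest mutant 2.60, far apart. The proline synthesis enzyme pycr1a rose (0.89 ± 0.13, 0.36 with the mean of its probes) and the leucine sensor sesn2 fell (-0.80 ± 0.12). The amino acid transporter genes slc38a2 (0.43, limma adjusted p = 0.00652) and slc3a2b (0.65, 0.0125) rose too. So did the stress gene ddit4 (0.79, limma adjusted p = 0.0485), whose call was lost without sibling pool 1, 2 or 3 or mutant pool 2, 3 or 4 (0.0651 to 0.121). Besides sesn2, those that fell were aldh18a1 (-0.80, limma adjusted p = 0.00316), mthfd2 (-0.62, 0.00719) and slc3a2a (-0.40, 0.0429). Among those that did not pass were asns, the asparagine synthetase, at 0.18 (limma adjusted p = 0.549), trib3 at 0.30 (0.178) and chac1 at 0.12 (0.368, but 0.32 and 0.0190 with quantile scaling). The transcripts of the factor itself, atf4a (-0.29) and atf4b (-0.07), did not pass either. Without mutant pool 2, atf4a was at -0.40 and passed (limma adjusted p = 0.0109). It also passed as lower with normexp (-0.36, 0.027), array weights (-0.31, 0.04) and slide row 1 alone (-0.40, 0.0493). With quantile scaling it was at 0.11 and did not pass (0.422).

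**Figure D4:**
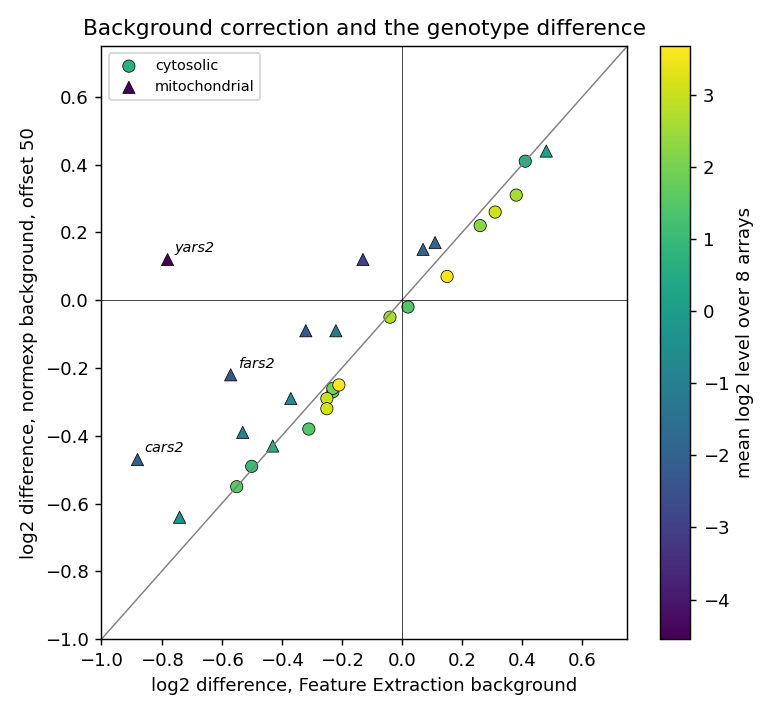
Log2 genotype difference of 28 synthetase genes with the background correction of Feature Extraction (x axis) and with normexp and an offset of 50 (y axis), with circles for cytosolic and triangles for mitochondrial genes, colour for the mean log2 level over 8 arrays and a grey line of equality. Cytosolic genes lie near the line, and the dim mitochondrial genes lie above it, with yars2 at -0.78 and 0.12, fars2 at -0.57 and -0.22 and cars2 at -0.88 and -0.47.

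The values that moved most with normexp were those of dim probes. Mean intensities behind the 16 cytosolic values lay between 953 and 7660, and those behind the 14 mitochondrial values between 27.4 and 899. In the 8 mitochondrial genes with a mean level under -1.5 (27.4 to 157) the median difference was -0.22, and 0.12 with normexp. In the other 6 it was -0.40, and -0.34 with normexp. Over all named genes it was 0.01, and 0.09 with normexp.

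Levels of tissue marker transcripts also differed between genotypes. Markers of 7 tissues were tested, and all 45 genes were well above background on at least 1 array of each genotype. Of the markers, 6 of 7 neuron genes were higher, and their summed level, relative to the 75th percentile, was 54.3 to 60.5 in siblings and 91.8 to 112 in mutants. All 4 intestine, 6 oocyte and 5 lens genes were lower, with sums of 134 to 154 and 24.2 to 80.5, 98.4 to 192 and 0.775 to 53.4, and 260 to 315 and 92.9 to 168. For the exocrine pancreas, which makes much protein, 5 of 9 were lower (1110 to 1430 and 513 to 1270), and liver had 3 of 7 higher (781 to 984 and 1050 to 1240). Fast skeletal muscle had 0 of 7 passing in limma, with 1 at an unadjusted p under 0.05 (1930 to 2650 and 1540 to 2970). Of all named genes 57.6% passed, 29.9% higher and 27.8% lower, against 55.6% in pancreas, all lower, and 42.9% in liver, all higher. The part of these marker differences in the synthetase differences was not tested.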

How the data were processed

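RNA of 8 pools (4 pex2 mutant, 4 sibling) was read on one-colour arrays. The deposited scanner files hold spot intensity, background-corrected by Agilent Feature Extraction 10.7.3.1, per the file headers. A deposited table gives log2 values as well, which equalled log2 intensity scaled to the 75th percentile and centred on each probe's median, 99.8% of values within 0.01 on each array, so scale, centring and direction are known. Column medians were -0.09, -0.08, -0.01, -0.09, 0.05, 0.17, 0.03 and 0.09 (siblings, then mutants).

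Of 61657 spots that are not controls, 1099 outlier readings over the 8 arrays were dropped, 0 were saturated, and log2 spots of a probe were averaged. A probe was kept if all its spots cleared background on 4 or more arrays, 29932 of 39749. RefSeq accessions named 61.8% of probes. The array's grid names danRer7, so no coordinates are given. A gene is its brightest kept probe. Differences were fitted by limma (version 3.58.1, R version 4.3.3; lmFit, then eBayes), adjusted by Benjamini-Hochberg over all kept probes, and the code was tested on simulated data. Pool values were given for the 4 largest differences per compartment and direction, for any synthetase gene that passed by at least 0.8, and for the genes of the 5 largest pair differences. Pool values of rars2, kars1, gtpbp3, pus1 and ddit3 lie outside that rule, which covers synthetases, and were chosen after their values were seen. Up to 4 genes of smallest adjusted p are named per list, and further listed genes were chosen after their values were seen. The members and lists were chosen with earlier results of these data known. Promoter and protein sequences were not used here. A few genes counted in the totals are not reported here by name or drawn.

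Over all kept probes, the deviations of same-numbered pools had correlations of 0.18, 0.10, -0.02 and -0.02, so the replicate number was not taken as a pairing. Among the cytosolic synthetases, pool 3 was the highest in 14 of 16 genes in the mutants and in 10 of 16 in the siblings. That count was not made over all probes, so it cannot be set against these correlations. Each number also marks a column of the slide.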

Additional observations from a re-analysis of the deposited data

Results flagged for a closer look

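In 60 groups of 4 pools, formed by 30 genes and 2 genotypes, 2 held a pool far from the other 3, and chance gives about 1 in 20. In both it was sibling pool 1. For aars1, the alanine enzyme gene, it read 3.68 where the other siblings lay between 3.82 and 3.83. For iars1, the isoleucine enzyme gene, it read 3.04 where the others lay between 3.16 and 3.18. Neither gene passed, with that pool or without it.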

How the results depend on the processing

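Of 689 synthetase differences recomputed under the alternatives, 634 stayed on their side of the threshold, with no change of sign among those called, 39 lost a call, 15 gained one and 1 reversed. The reversal was yars2 with normexp (0.12). No pair passed under any setting, which 4 against 4 pools, or 1 pool fewer, almost fixes. Within a slide row, with 2 against 2 pools, no pair could pass, so those settings say nothing on this. Values of pairs that overlapped changed sign (yars1 to yars2 from -0.50 to 0.79). The number of cytosolic genes higher was 2, and 1 with no filter or with the slide row as a block, 4 with array weights, 0 at a threshold of 0.01, and 0 to 2 with a pool left out. The number lower was 2, and 1 at 0.01, and 1 to 6 with a pool left out, the 6 being without mutant replicate 3. Without that pool 25.8% of all named genes were lower and 27.3% higher. The median of the mitochondrial genes, -0.35, was -0.09 with normexp (0.09 for all named genes) and -0.40 to -0.32 with a pool left out. The median pair difference, 0.41, was -0.08 with normexp, 0.54 within slide row 1 and 0.27 within slide row 2, a split chosen after seeing the data. Within row 1, where 43.6% of all named genes passed, 2 cytosolic genes were higher, 1 cytosolic lower, 0 mitochondrial higher and 6 mitochondrial lower. Within row 2, where 5.48% of all named genes passed, 0 cytosolic genes were higher, 0 cytosolic lower, 0 mitochondrial higher and 0 mitochondrial lower. Of the listed genes, osgepl1 reversed with normexp (0.06). The listed genes, whose numbers tested are given above by list, gave 10 higher and 15 lower. They gave 12 and 21 with normexp, 5 and 8 at 0.01, 7 and 9 within row 1, and 0 and 1 within row 2. Of all named genes 29.9% were higher and 27.8% lower, and at 0.01 these shares were 21.8% and 18.5%. With normexp they were 36.4% and 24.3%. Within row 1 they were 22.7% and 20.9%, and within row 2 2.08% and 3.40%. The replicate block is also a block by slide column. With it the cytosolic counts were 2 and 2, the mitochondrial 1 and 7, and 54.6% of all genes passed. Under that block elac1 and ddit4 lost their calls among named genes (adjusted p 0.0582 and 0.0600). Signal over background limits the dimmest mitochondrial probes, of which yars2, at a mean intensity of 27.4, is the lowest.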
